A study of Mus musculus with 6 samples.

Results

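Acute phase proteins are plasma and tissue proteins whose genes are switched on by inflammation, chiefly through interleukin-6 family cytokines acting on STAT3 and through interleukin-1 and TNF acting on NF-kB and C/EBP factors. The liver is the classical source, but several of the genes are also expressed in inflamed tissue by epithelium, macrophages, neutrophils, fat and endothelium. In the kidney, lipocalin 2 is a widely used marker of injured tubule. The 10 genes described here are Hp, Saa1, Saa2, Saa3, Lcn2, Lrg1, Orm1, Orm2, Serpina3n and Steap4, among 19938 genes measured. The genes were listed by name, with earlier results of these arrays known, and the array row of each was chosen by its mean over all 6 arrays, the highest row being taken. Each of the 10 had a single row, so that choice decided nothing.

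The arrays measured total RNA of tumors of Renca, a mouse renal carcinoma line of BALB/c origin, grown in BALB/c mice and taken 12 days after injection. Intrakidney tumors had been started by injection into the outer cortex of the kidney and subcutaneous tumors by injection under the skin, with 3 tumors per site and a separate mouse for each. Both groups shared the cell line, the strain and the time point, and no other treatment was named. All results come from this 1 line, and excised tumor holds host cells beside carcinoma cells. The epithelial keratin gene Krt8 measured 13.16 to 13.35 and Krt18 measured 12.00 to 12.23 on the log2 scale across the 6 arrays, with overlapping groups. All values are log2 RMA values, so 1 unit is a doubling, and they compare arrays within a gene but not genes with each other. Array medians lay between 7.08 and 7.11, and 3 arrays per group set the precision.

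Intrakidney tumor 3 stood apart in liver transcripts. Alb, the albumin gene and a defining transcript of hepatocytes, measured 5.60, 5.50 and 5.55 in the subcutaneous tumors and 5.88, 7.20 and 11.83 in intrakidney tumors 1, 2 and 3. Relative to the subcutaneous mean, Alb lay 6.28 higher in intrakidney tumor 3, 1.65 higher in intrakidney tumor 2 and 0.33 higher in intrakidney tumor 1. The subcutaneous mean of Alb ranked at percentile 17.6 of all genes, and it was not established that it lay above background, so no fold is given for it. In intrakidney tumor 3, all 20 hepatocyte markers lay above every subcutaneous tumor, and 18 of them exceeded all 5 other arrays by at least 1 log2 unit. In intrakidney tumor 2, 15 of the 20 lay above every subcutaneous tumor, and in intrakidney tumor 1, 4 of the 20 did. The mean over the list was 5.97, 6.33 and 8.63 in intrakidney tumors 1, 2 and 3 and ranged from 5.91 to 6.16 in the subcutaneous tumors, so intrakidney tumor 1 lay inside the subcutaneous range and intrakidney tumor 2 above it. Every member below is therefore given with and without intrakidney tumor 3, and in intrakidney tumor 1 alone.

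The 10 genes fell into 2 patterns across the arrays. Hp, Saa3, Lcn2, Lrg1, Serpina3n and Steap4 were higher in all 3 intrakidney tumors than in any subcutaneous tumor, with group differences of 0.95 to 2.43 on the log2 scale. Saa1, Saa2, Orm1 and Orm2 were high mainly in intrakidney tumor 3, the tumor with the high Alb value, and lay near the subcutaneous level in the other intrakidney tumors. With limma and adjustment over all genes, Lrg1 alone of the 10, or 1 member, reached an adjusted p under 0.05, being higher in intrakidney tumors, against 0.231% of all genes in either direction and 0.130% in that direction. At an unadjusted p of 0.05, 6 of the 10 were higher in intrakidney tumors, against 4.72% of all genes. Intrakidney arrays lay above all subcutaneous arrays for 7 of the 10, Orm1 being the seventh by a gap of 0.03, against 8.41% of all genes. The difference was above 0 for all 10, against 48.0% of all genes, but for Saa2 and Orm2 this did not hold without intrakidney tumor 3. The median difference of the 10 was 1.05, and 0.78 without intrakidney tumor 3, beside medians of -0.006 and -0.004 over all genes.

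**Figure D1:**
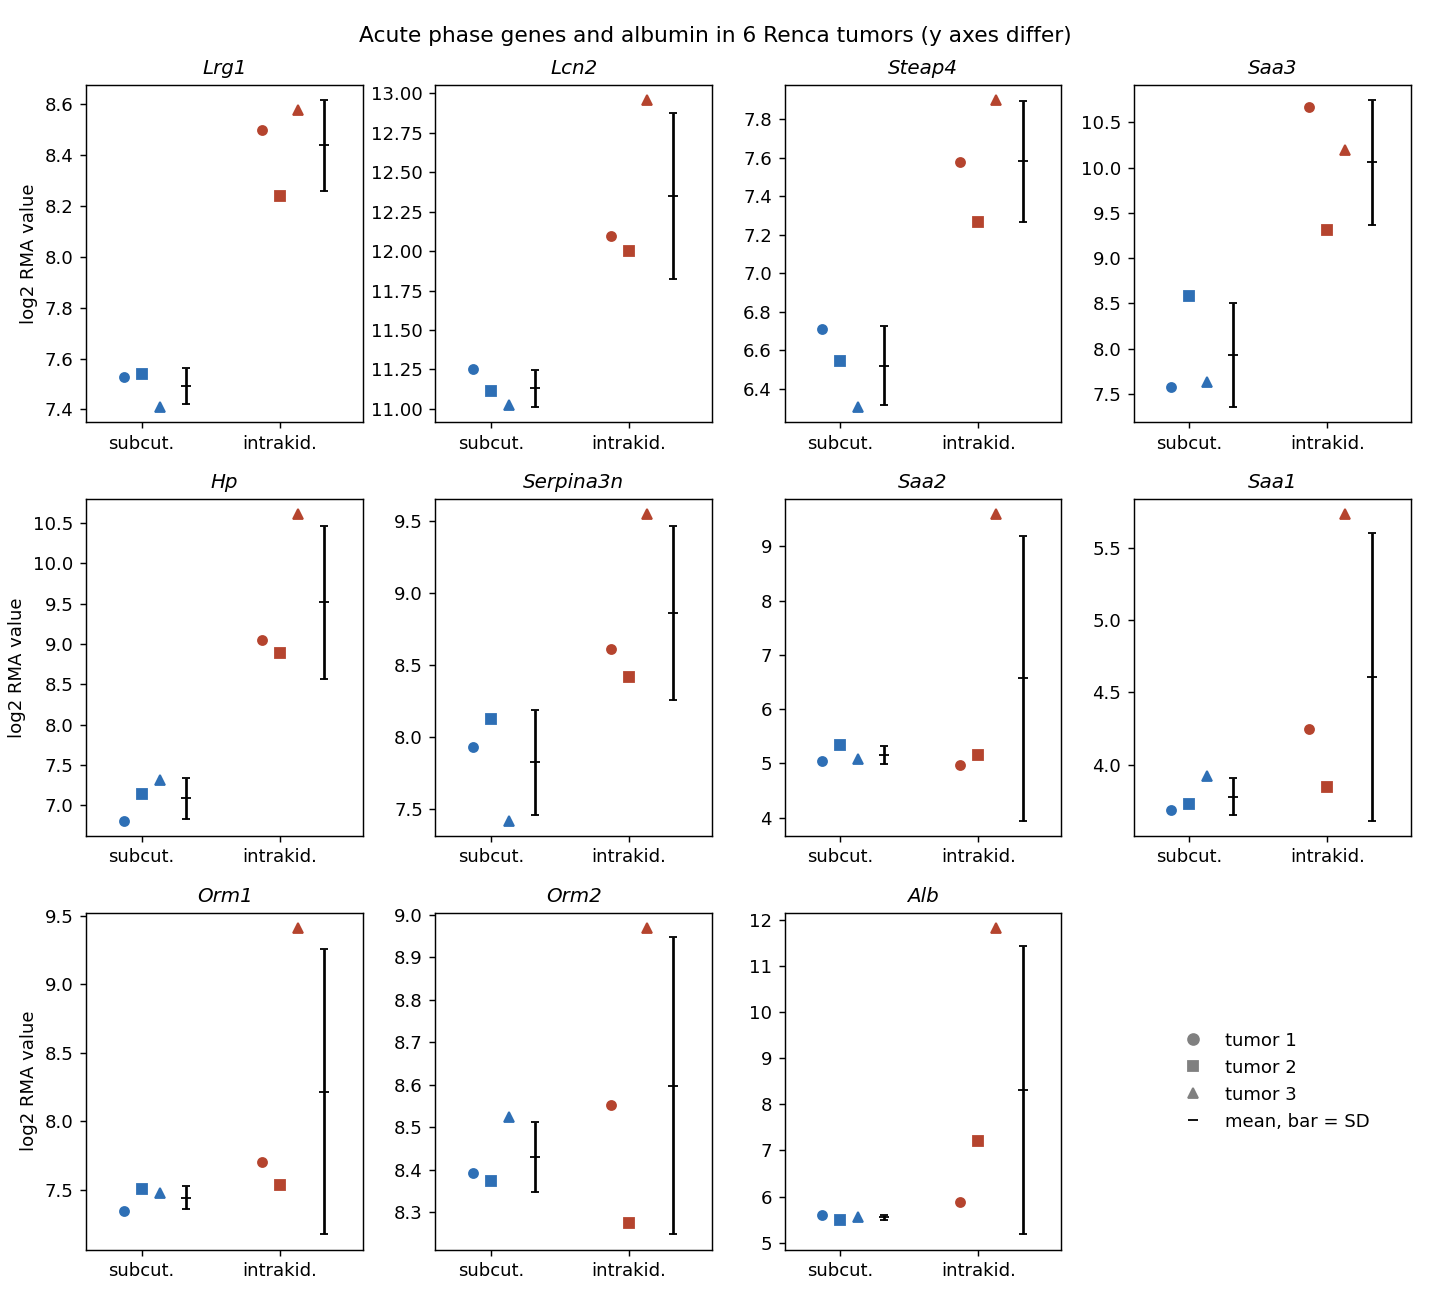
Log2 RMA values of the 10 acute phase genes and of Alb in the 3 subcutaneous (blue) and 3 intrakidney (red) tumors, with a marker shape per tumor number and the mean and SD of each group beside the points; the y axes differ and do not start at 0. Saa2 reached 9.59 in intrakidney tumor 3 alone, whereas all 3 intrakidney tumors exceeded the subcutaneous tumors for Lrg1, Lcn2, Steap4, Saa3, Hp and Serpina3n.

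Lrg1 encodes a secreted leucine-rich glycoprotein that modifies TGF-beta signalling in endothelium through the co-receptor endoglin. It measured 8.50, 8.24 and 8.58 in the intrakidney tumors and 7.53, 7.54 and 7.41 in the subcutaneous tumors. The groups were separated by 0.70 and each spread over less than that, 0.34 and 0.13. Lrg1 rose 1.93-fold, by 0.95 ± 0.10 on the log2 scale (SE, limma, adjusted p = 0.0228). The call was lost on leaving out any array except intrakidney tumor 2: the adjusted p was 0.0635 without intrakidney tumor 1, 0.0571 without intrakidney tumor 3, and 0.126, 0.119 and 0.100 without subcutaneous tumors 1, 2 and 3. The difference itself stayed between 0.87 and 1.05 over all 18 other settings, in which the adjusted p ran from 0.0030 to 0.193. Without intrakidney tumor 3 the Lrg1 difference was 0.88. In intrakidney tumor 1, where the mean of the hepatocyte markers was within the subcutaneous range, Lrg1 was 2.01-fold above the subcutaneous mean. In bulk tumor RNA, a change in the share of cells that express a gene and a change in RNA per cell cannot be told apart, here and for every gene below.

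The largest difference of all 10 genes was that of Hp. Hp encodes haptoglobin, which captures free hemoglobin for uptake by macrophages. It measured 9.05, 8.89 and 10.61 in the intrakidney tumors and 6.81, 7.14 and 7.31 in the subcutaneous tumors. The lowest intrakidney tumor lay 1.58 above the highest subcutaneous tumor. The difference of 2.43 ± 0.42 (SE), a 5.39-fold difference, did not pass with all arrays (adjusted p = 0.103). Without intrakidney tumor 3 the difference was 1.88 and passed (adjusted p = 0.0138). Intrakidney tumor 1 alone lay 1.96 above the subcutaneous mean. Over all 18 other settings the adjusted p of Hp ran from 0.0101 to 0.432. Intrakidney tumor 3 exceeded the next intrakidney tumor by 1.56 in Hp.

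Lcn2 encodes lipocalin 2, which withholds iron from bacteria by binding their siderophores and is stored in neutrophil granules and released by injured tubule. It measured 12.10, 12.00 and 12.96 in the intrakidney tumors and 11.25, 11.11 and 11.02 in the subcutaneous tumors. Intrakidney tumors 1 and 2 lay close together and intrakidney tumor 3 was 0.86 above the higher of them, while the subcutaneous tumors spread over 0.23. The difference of 1.22 ± 0.24 (SE), or 2.33-fold, did not pass with all arrays (adjusted p = 0.147). It was 0.92 without intrakidney tumor 3 and passed (adjusted p = 0.0439), and its adjusted p ran from 0.0136 to 0.588 over the 18 other settings.

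Steap4 encodes a membrane reductase of iron and copper that is induced by inflammatory cytokines in fat and other tissues. It measured 7.58, 7.27 and 7.90 in the intrakidney tumors and 6.71, 6.54 and 6.31 in the subcutaneous tumors. The groups did not overlap, and intrakidney tumors 1 and 3 differed by 0.32. The difference was 1.06 ± 0.17 (SE), or 2.09-fold, and missed the threshold (adjusted p = 0.0840, range 0.0081 to 0.395 over the 18 other settings). It was 0.90 without intrakidney tumor 3 and 1.06 in intrakidney tumor 1 alone. Of the other STEAP reductase genes, Steap2 and Steap1 both differed by 0.38 (adjusted p = 0.153 and 0.323) and Steap3 by -0.31 (adjusted p = 0.380). For these 3 genes, too, the groups did not overlap, and 0 of the 4 family members passed. Among all genes, 8.41% were higher and 6.53% lower in every intrakidney tumor than in any subcutaneous tumor.

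Serpina3n encodes a secreted inhibitor of serine proteases such as granzyme B and leukocyte elastase. It measured 8.61, 8.42 and 9.55 in the intrakidney tumors and 7.92, 8.12 and 7.42 in the subcutaneous tumors. The gap between the groups was 0.29, smaller than the spread of 0.71 within the subcutaneous group. The difference of 1.04 ± 0.30 (SE) did not pass (adjusted p = 0.379), and it was 0.69 without intrakidney tumor 3.

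The serum amyloid A genes encode small apolipoproteins that associate with high-density lipoprotein; Saa1 and Saa2 are mainly made by liver, whereas Saa3 is expressed in macrophages, fat and epithelium outside the liver. They differed in which intrakidney tumor was highest. Saa3 measured 10.66, 9.31 and 10.19 in the intrakidney tumors and 7.57, 8.59 and 7.63 in the subcutaneous tumors, and it was the only member whose highest value was not in intrakidney tumor 3. For the other 9 of the 10 members that tumor was the highest array, against 12.6% of all genes. The Saa3 difference was 2.13 ± 0.38 (SE), or 4.37-fold, and did not pass (adjusted p = 0.114, range 0.0319 to 0.457 over the 18 other settings). Without intrakidney tumor 3 it was 2.06, and intrakidney tumor 1 alone was 6.66-fold above the subcutaneous mean. Subcutaneous tumor 2 was high for its group, 0.96 above the next subcutaneous tumor.

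Saa2 measured 4.97, 5.15 and 9.59 in the intrakidney tumors and 5.05, 5.34 and 5.08 in the subcutaneous tumors. Intrakidney tumors 1 and 2 overlapped with the subcutaneous tumors, and intrakidney tumor 3 lay 4.26 above the highest of the other arrays. The difference of 1.41 (95% interval -1.17 to 3.99, adjusted p = 0.822) was -0.10 without intrakidney tumor 3. Saa1 measured 4.25, 3.85 and 5.73 in the intrakidney tumors and 3.69, 3.73 and 3.92 in the subcutaneous tumors, a difference of 0.83 (95% interval -0.16 to 1.82, adjusted p = 0.685) that was 0.27 without intrakidney tumor 3. Saa1 and Saa2 are close copies, and the array rows may each pick up RNA of the other, so values of this pair are uncertain as to which gene they came from.

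Orm1 and Orm2 encode orosomucoids, acid glycoproteins of plasma that carry lipophilic molecules. Orm1 measured 7.70, 7.53 and 9.41 in the intrakidney tumors and 7.34, 7.51 and 7.47 in the subcutaneous tumors. Its difference of 0.77 (95% interval -0.26 to 1.81, adjusted p = 0.719) was 0.17 without intrakidney tumor 3. Orm2 measured 8.55, 8.27 and 8.97 against 8.39, 8.37 and 8.52, with overlapping groups and a difference of 0.17 (95% interval -0.21 to 0.55, adjusted p = 0.872). Without intrakidney tumor 3 the Orm2 difference was -0.02. The third orosomucoid gene, Orm3, differed by 0.29 (adjusted p = 0.637), and these close copies may share signal on the array.

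**Figure D2:**
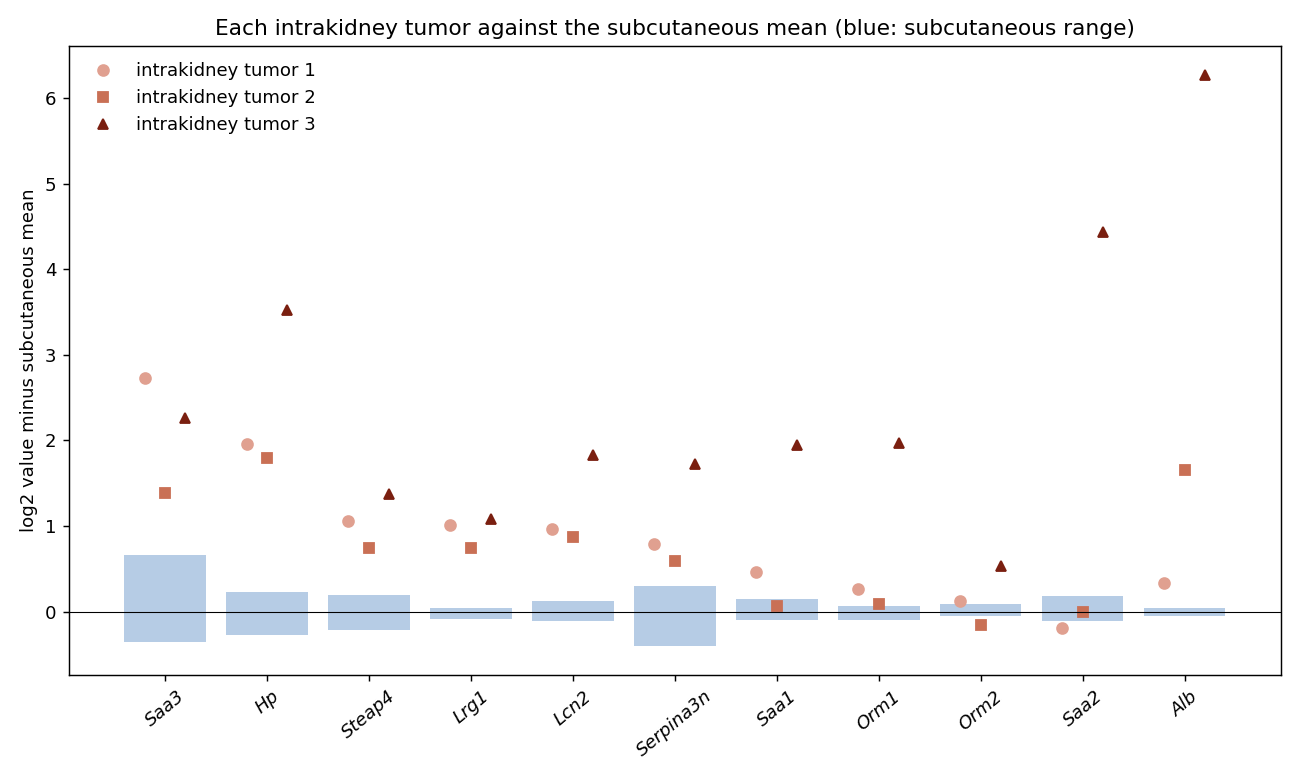
Log2 value of each intrakidney tumor minus the mean of the 3 subcutaneous tumors for the 10 genes and Alb; blue boxes span the subcutaneous tumors. Intrakidney tumor 1, at 0.33 for Alb, stood at 2.74 for Saa3 and 1.96 for Hp, while Saa2 and Orm1 left the subcutaneous level by more than 0.30 in intrakidney tumor 3 only, at 4.44 and 1.97.

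In intrakidney tumor 1, Saa3 was 6.66-fold, Hp 3.90-fold, Steap4 2.08-fold, Lrg1 2.01-fold, Lcn2 1.95-fold and Serpina3n 1.73-fold above the subcutaneous mean, while Alb lay 0.33 above it on the log2 scale. Those 6 were the members at least 0.5 log2 units above the subcutaneous mean in that tumor, a limit chosen after the values were seen and passed by 1.22% of all genes. Orm1 and Orm2 were 1.20-fold and 1.09-fold above it. Saa1 lay 0.47 above it and Saa2 -0.19 from it on the log2 scale. The subcutaneous means of Saa1 and Saa2 ranked at percentiles 2.3 and 12.9 of all genes and were not shown to lie above background, so no fold is given for this pair. With the Alb level of each array as a covariate in the fit, the differences were 2.16 for Saa3, 1.63 for Hp, 0.87 for Lrg1, 0.85 for Steap4, 0.77 for Lcn2 and 0.54 for Serpina3n, and none passed (adjusted p = 0.138 to 0.779). Without intrakidney tumor 3, Hp and Lcn2 passed, 2 of the 10 against 0.0802% of all genes higher in intrakidney tumors, and without intrakidney tumors 2 and 3, Hp and Lrg1 passed, 2 of the 10 against 0.0853%. Without intrakidney tumors 2 and 3, only intrakidney tumor 1 remained in its group. The p-values of that fit held no spread between intrakidney tumors, so the calls of Hp and Lrg1 there do not test the site. With the Alb covariate the differences were -0.86 for Saa2, -0.10 for Orm1 and -0.08 for Orm2, opposite in sign to those without the covariate, and 0.03 for Saa1.

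**Figure D3:**
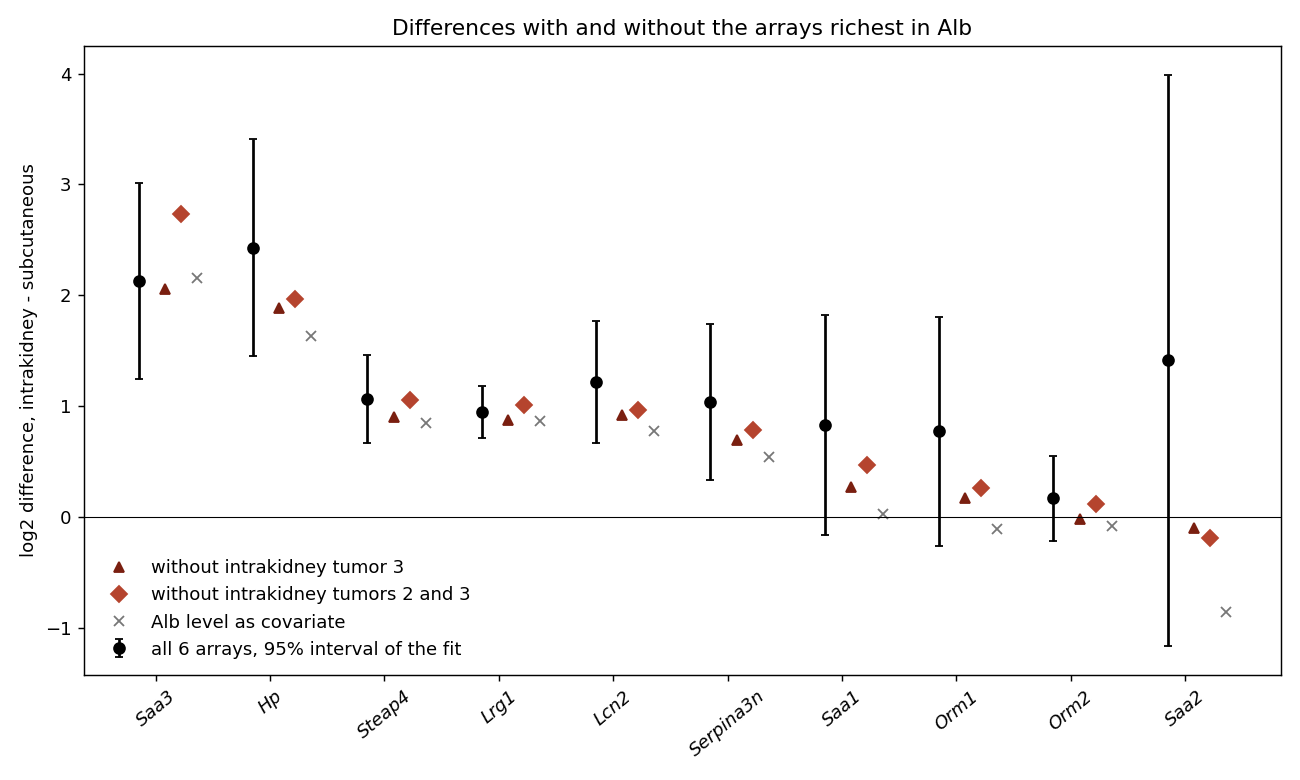
Log2 differences between intrakidney and subcutaneous tumors for the 10 genes with all 6 arrays (black, 95% interval of the limma fit), without intrakidney tumor 3, without intrakidney tumors 2 and 3, and with Alb as a covariate. The Lrg1 difference stayed between 0.87 and 1.01 in these fits, whereas that of Saa2 went from 1.41 to -0.86.

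To show the regulatory sequence beside these values, the 250 bases upstream of the start site were taken from RefSeq (GRCm38.p6). The table held such windows for 8 of the 10 genes, without Hp and Orm1. For 5 genes the table's start site was the annotated 5′ end of the gene, and these windows are printed. They are Lrg1, Lcn2 and Steap4, which were higher in every intrakidney tumor, and Saa2 and Orm2, for which the groups overlapped. For the other 3 the table's start site lay inside the annotated gene, by 62 bases for Serpina3n, 201 for Saa1 and 3939 for Saa3, so those windows overlap the gene and are not printed. Capitals mark matches, on either strand, to TTGCNNAA for C/EBP factors, to TTCNNNGAA for STAT dimers, or to GGG, any 2 bases and TTTCC for NF-kB, where N is any base.
Lrg1, chr17:56121947-56122196, minus strand: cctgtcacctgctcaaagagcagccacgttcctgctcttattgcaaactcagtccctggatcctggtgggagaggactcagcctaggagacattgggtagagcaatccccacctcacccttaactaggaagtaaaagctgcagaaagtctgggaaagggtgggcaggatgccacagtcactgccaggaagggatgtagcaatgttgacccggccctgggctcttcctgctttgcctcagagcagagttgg
Lcn2, chr2:32387740-32387989, minus strand: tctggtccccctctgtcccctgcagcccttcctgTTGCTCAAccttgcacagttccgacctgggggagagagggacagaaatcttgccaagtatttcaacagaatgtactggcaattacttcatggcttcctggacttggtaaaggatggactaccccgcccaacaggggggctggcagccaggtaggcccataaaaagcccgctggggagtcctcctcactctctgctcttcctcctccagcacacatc
Steap4, chr5:7960222-7960471, plus strand: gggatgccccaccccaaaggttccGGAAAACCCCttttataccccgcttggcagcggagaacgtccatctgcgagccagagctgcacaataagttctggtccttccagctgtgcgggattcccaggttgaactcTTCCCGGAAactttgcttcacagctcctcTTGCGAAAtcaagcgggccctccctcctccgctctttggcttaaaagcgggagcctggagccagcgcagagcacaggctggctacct
Saa2, chr7:46751583-46751832, plus strand: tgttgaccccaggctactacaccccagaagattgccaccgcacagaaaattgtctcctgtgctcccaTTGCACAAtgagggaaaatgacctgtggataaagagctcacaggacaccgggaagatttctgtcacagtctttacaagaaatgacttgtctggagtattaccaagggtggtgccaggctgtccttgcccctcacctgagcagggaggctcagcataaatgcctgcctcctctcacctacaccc
Orm2, chr4:63362199-63362448, plus strand: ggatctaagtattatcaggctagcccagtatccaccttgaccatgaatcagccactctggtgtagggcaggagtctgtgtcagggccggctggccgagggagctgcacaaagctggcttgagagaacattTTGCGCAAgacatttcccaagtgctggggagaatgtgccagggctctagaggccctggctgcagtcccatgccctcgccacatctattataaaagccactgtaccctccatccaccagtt
A C/EBP match was found in 4 of these 5 windows (Lcn2, Steap4, Saa2 and Orm2), against 9.56% of 32851 windows of the same length in the table. With the windows of Saa1 and Saa3 counted it was 6 of the 8. The Saa1 window is 94.8% identical to that of Saa2, so this pair does not give independent matches. The Saa3 window lies wholly inside the annotated gene. Steap4 held the only STAT match, a motif found in 7.02% of all windows. Steap4 and, in the window that overlaps its gene, Serpina3n held an NF-kB match, found in 1.41% of all windows. Lrg1 held none of the 3 motifs in this window. C/EBP matches stood in windows of both patterns. These are matches of letters and do not show binding.

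The cytokines that induce the acute phase were next compared, from lists that held the genes whatever their values. Of 12 measured cytokine genes 0 passed, 9 lay higher and 3 lower, with a median difference of 0.24. The lowest adjusted p was that of Lif, an interleukin-6 family cytokine, which measured 7.989, 8.002 and 8.146 in the intrakidney tumors and 7.12, 7.48 and 7.59 in the subcutaneous tumors (difference 0.65, adjusted p = 0.148). Tnf differed by 0.39 and the related family member Osm by 0.43 (adjusted p = 0.297 and 0.379). For all 3 the groups did not overlap, as for 5 of the 12 measured genes, all higher, against 8.41% of all genes. Il6, named here after its values were seen, measured 5.41, 4.61 and 4.85 against 4.05, 4.51 and 4.29, a difference of 0.67 (adjusted p = 0.416). Its mean over all 6 arrays ranked at percentile 7.8 of all genes and was not shown to lie above background.

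Of 12 measured receptor genes 0 passed, with 8 higher, 4 lower and a median of 0.15. Il6ra, the ligand-binding receptor chain of interleukin-6, was lower in every intrakidney tumor, at 10.66, 10.72 and 10.62 against 11.15, 11.20 and 11.06 (difference -0.47, adjusted p = 0.0744). Osmr, the oncostatin M receptor, differed by 0.49 and Il6st, which encodes the shared signalling chain of the family, by 0.23 (adjusted p = 0.212 and 0.477). In this receptor family the ligand-binding chain of interleukin-6 thus lay in the opposite direction to Osmr and Il6st, with none past the threshold.

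Of 19 measured regulator genes of the STAT3, C/EBP and NF-kB pathways 0 passed, with 16 higher, 3 lower and a median of 0.14. The groups did not overlap for 8 of the 19, all higher in intrakidney tumors, against 8.41% of all genes. Bcl3, an NF-kB cofactor, measured 8.998, 9.096 and 9.116 against 8.25, 8.38 and 8.57 (difference 0.67 ± 0.10, SE, adjusted p = 0.0559). Socs3, the feedback inhibitor of STAT3 signalling, differed by 0.58, and Cebpd, a C/EBP factor induced in the acute phase, by 0.66 (adjusted p = 0.140 and 0.143). Without intrakidney tumor 3 the differences of Bcl3, Socs3 and Cebpd were 0.64, 0.48 and 0.52.

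**Figure D4:**
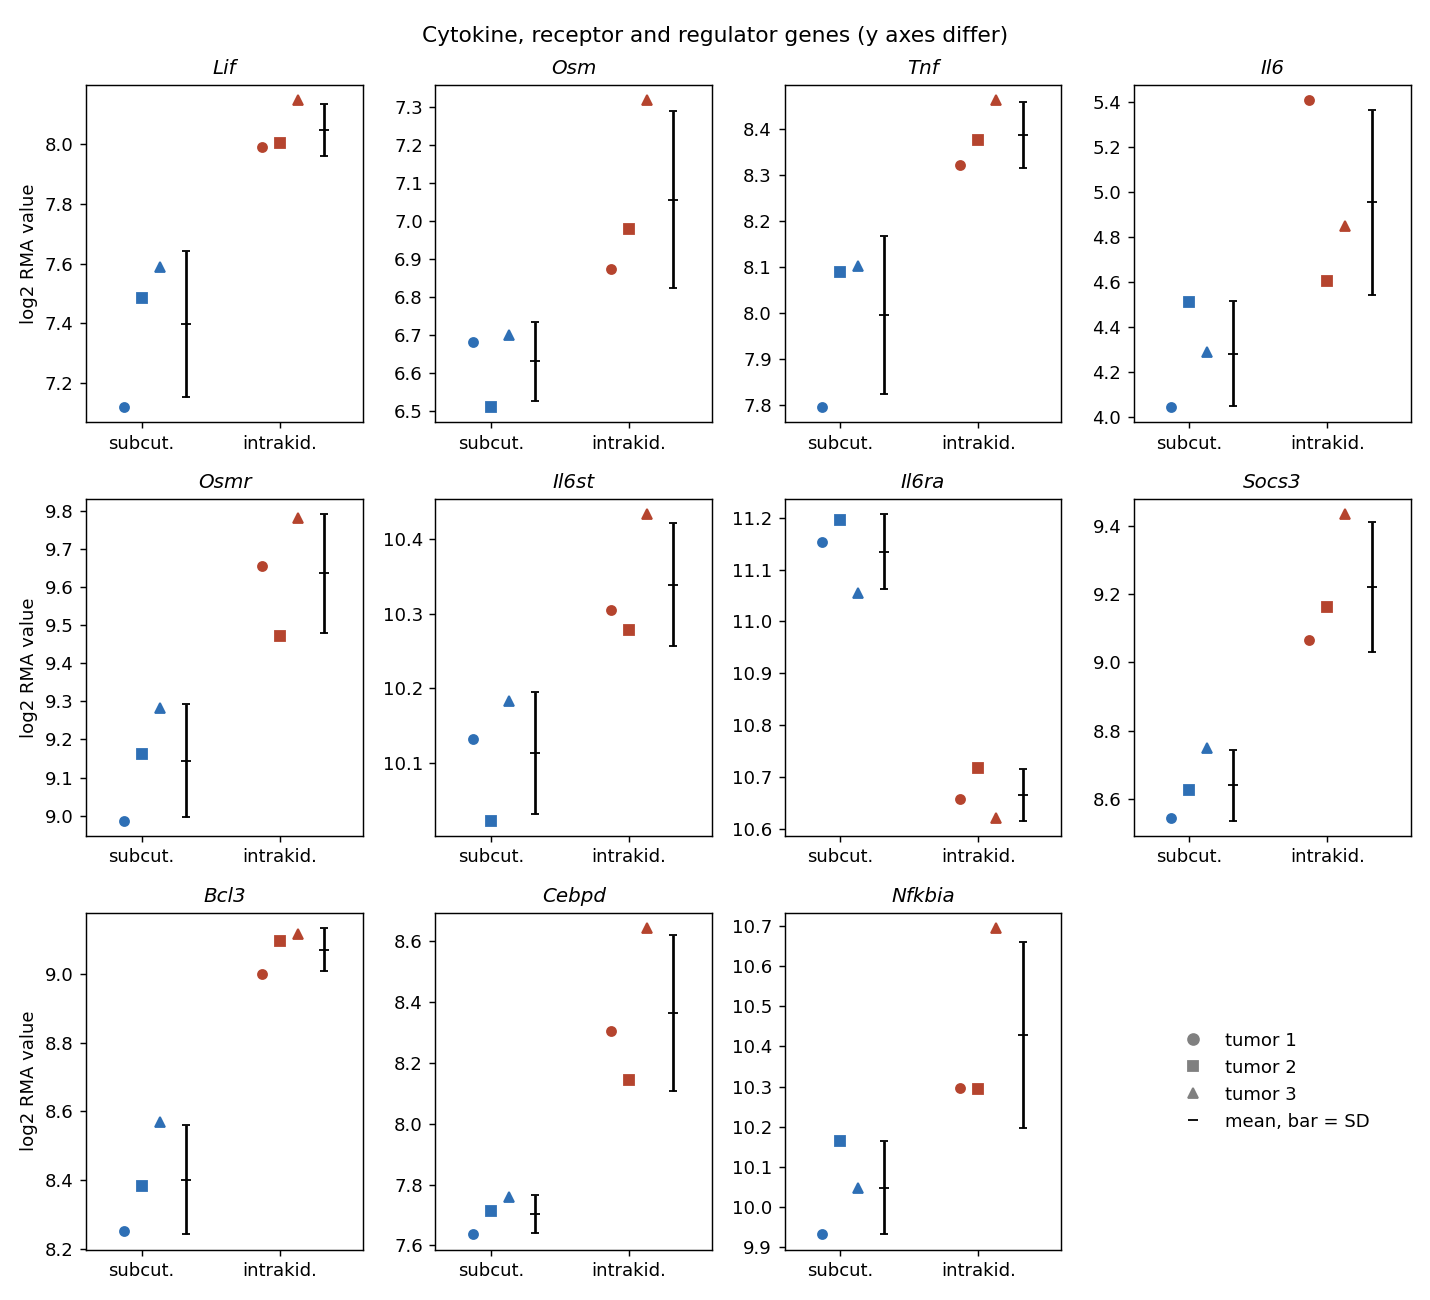
Log2 RMA values of 4 cytokine genes (Lif, Osm, Tnf, Il6), 3 receptor genes (Osmr, Il6st, Il6ra) and 4 regulator genes (Socs3, Bcl3, Cebpd, Nfkbia) in the subcutaneous (blue) and intrakidney (red) tumors, with mean and SD; Il6 and Nfkbia were added after their values were seen, and the y axes differ. No gene passed the threshold, and Il6ra was the only 1 that was lower in intrakidney tumors. The groups did not overlap for any of the 11 genes, most of which were chosen by lowest adjusted p. Over the full lists they did not overlap for 5 of 12 cytokine genes and 8 of 19 regulator genes, all higher. Of 12 receptor genes, 5 were higher and 1 lower without overlap. Among all genes, 8.41% were higher and 6.53% lower without overlap.

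Receptors and partners of the acute phase proteins had a median of 0.04, with 8 of 15 measured genes higher and 0 past the threshold. Cd163, the macrophage receptor for haptoglobin bound to hemoglobin, measured 7.80, 7.59 and 8.28 in the intrakidney tumors and 6.79, 6.89 and 6.87 in the subcutaneous tumors. Its difference was 1.04 ± 0.16 (SE, adjusted p = 0.0744), and 0.85 without intrakidney tumor 3, which passed (adjusted p = 0.0452). Mmp9, the gelatinase that lipocalin 2 binds, differed by -0.21, and the TGF-beta receptor gene Tgfbr1 by -0.23 (adjusted p = 0.570 and 0.582). Other plasma proteins of the acute phase had 18 of 23 measured genes higher, 0 past the threshold and a median of 0.34, which was 0.008 without intrakidney tumor 3. Complement C4b, the zinc transporter gene Slc39a14 and complement factor Cfb were nearest to the threshold and differed by 0.59, 0.25 and 0.34 (adjusted p = 0.357, 0.424 and 0.573). For 9 of the 23, intrakidney tumor 3 exceeded all other arrays by at least 1 log2 unit. The 3 fibrinogen genes Fga, Fgb and Fgg stand on both this list and the hepatocyte list.

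The genes nearest in profile to each member were found by the root mean square difference of values centred on each gene's mean over the 6 arrays, for the 9 members that ranged over at least 1 log2 unit. Nearest to Saa2 were Fgg (0.20), Ahsg (0.22) and Hpx (0.36), and Fgg and Ahsg were on the hepatocyte list, as was Apob. Nearest to Orm1 were Apob (0.08), Saa1 (0.10) and Cyp2c29 (0.13), and nearest to Saa1 were Orm1 (0.10), Apob (0.12) and Rbp4 (0.17). For Saa3 they were Serpinb2 (0.33), Arg1 (0.40) and Prg4 (0.43), and for Hp they were Cyp2e1 (0.32), Arg1 (0.53) and Fabp4 (0.58). Cyp2e1 was on the proximal tubule list and, as for Hp, its highest value was in intrakidney tumor 3, where the hepatocyte markers were highest too. Cyp2e1 also lay 2.31 above the subcutaneous mean in intrakidney tumor 1 and 1.36 above it in intrakidney tumor 2. In intrakidney tumor 1 the means of the hepatocyte and proximal tubule lists, 5.97 and 6.48, lay within the subcutaneous ranges. Which cells the RNA of Cyp2e1 came from was not tested. For Lcn2 they were Ifitm6 (0.13), Ghr (0.14) and Timp3 (0.15), and for Lrg1 they were C5ar1 (0.11), Gda (0.12) and Hsd11b1 (0.12). Serpina3n lay nearest to Clec4d (0.14), Cxcr2 (0.18) and Plod2 (0.19), of which Cxcr2 was on the neutrophil list, and Steap4 to Timp3 (0.09), Fn1 (0.10) and Plod2 (0.12). These are distances over 6 arrays that share the separation of the groups.

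Markers of other cell types that can express the members were compared between the sites, and 4 of the marker genes passed the threshold. They were Car3 and Cidec, 2 of 9 adipocyte markers, Emcn, 1 of 10 endothelial markers, and Postn, 1 of 9 fibroblast markers. On the other cell type lists 0 passed, beside 0.231% of all genes. The mean over 15 neutrophil markers was 6.26 to 6.66 in intrakidney and 6.08 to 6.22 in subcutaneous tumors, with 11 of 15 higher, 0 past the threshold and a median difference of 0.23. Of these, S100a8, Mmp8 and Cxcr2 differed by 0.77, 0.67 and 0.83, while the groups overlapped for the defining genes Ly6g, Ngp, Camp, Ltf and Mpo. Over 9 adipocyte markers the mean was 7.74 to 7.84 against 7.09 to 7.24, with 7 of 9 higher and a median difference of 0.15, and Car3 and Cidec rose by 3.41 and 0.66 (adjusted p = 0.0063 and 0.0280). Without Car3 the mean was 7.49 to 7.54 against 7.15 to 7.26. Adipoq lay 1.14 higher (adjusted p = 0.0587), whereas the groups overlapped for Plin1, Lep, Lipe and Pnpla2, and Plin4 was lower in every intrakidney tumor (difference -0.18, adjusted p = 0.561). Over 8 mesothelium markers it was 6.22 to 6.51 against 5.94 to 6.14, with 7 of 8 higher, a median difference of 0.25, 0 past the threshold and Upk1b nearest to it (0.79, adjusted p = 0.0533).

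Over 11 macrophage markers the mean was 10.03 to 10.19 against 9.97 to 10.01, with 7 of 11 higher, 0 past the threshold and a median difference of 0.12, and Cd14, a co-receptor for bacterial lipopolysaccharide, lay 0.44 higher (adjusted p = 0.0744). The 4 that lay lower were Cd68, Csf1r, Adgre1 and Marco (-0.06, -0.14, -0.05 and -0.01), all with overlapping groups. Of 10 endothelial markers, 6 were higher without overlap, among them Emcn, which rose by 0.72 (adjusted p = 0.0460). The groups overlapped for Pecam1, Vwf, Esam and Cldn5. The mean over the 10 was 8.23 to 8.28 against 7.95 to 8.10, with 7 of 10 higher and a median of 0.16. Over 7 injured tubule markers it was 9.52 to 9.79 against 9.29 to 9.45, with 4 of 7 higher, 0 past the threshold and a median of 0.14; Clu, Krt20 and the injury marker Havcr1 differed by 0.35, 0.59 and 0.96. Over 16 proximal tubule markers it was 6.48, 6.88 and 7.51 in intrakidney tumors 1, 2 and 3 against 6.40 to 6.53, with 15 of 16 higher, 0 past the threshold and a median of 0.31, and this list mean, too, was highest in intrakidney tumor 3. The member with the lowest adjusted p was the 1 that lay the other way: Aqp1, a water channel, was lower in every intrakidney tumor (difference -1.04, adjusted p = 0.114), followed by Cyp2e1 (2.55, adjusted p = 0.209). Fibroblast markers lay the other way, with 7 of 9 lower, a mean of 8.58 to 9.35 against 9.40 to 9.54, and Postn, which fell by 1.66 (adjusted p = 0.0460). Skin keratinocyte markers overlapped between the groups (5.81 to 6.07 against 5.91 to 6.10), and of the red blood cell markers the 2 measured were both higher, with 0 past the threshold. Car3 lost its call without subcutaneous tumor 1 (adjusted p = 0.0623). Cidec and Emcn lost theirs without any 1 of the 6 arrays (0.0510 to 0.153 and 0.0606 to 0.247), and Postn kept its call only without intrakidney tumor 3 (0.0062, against up to 0.253 without another array). The part of these cell types in the differences of the acute phase genes was not tested.

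**Figure D5:**
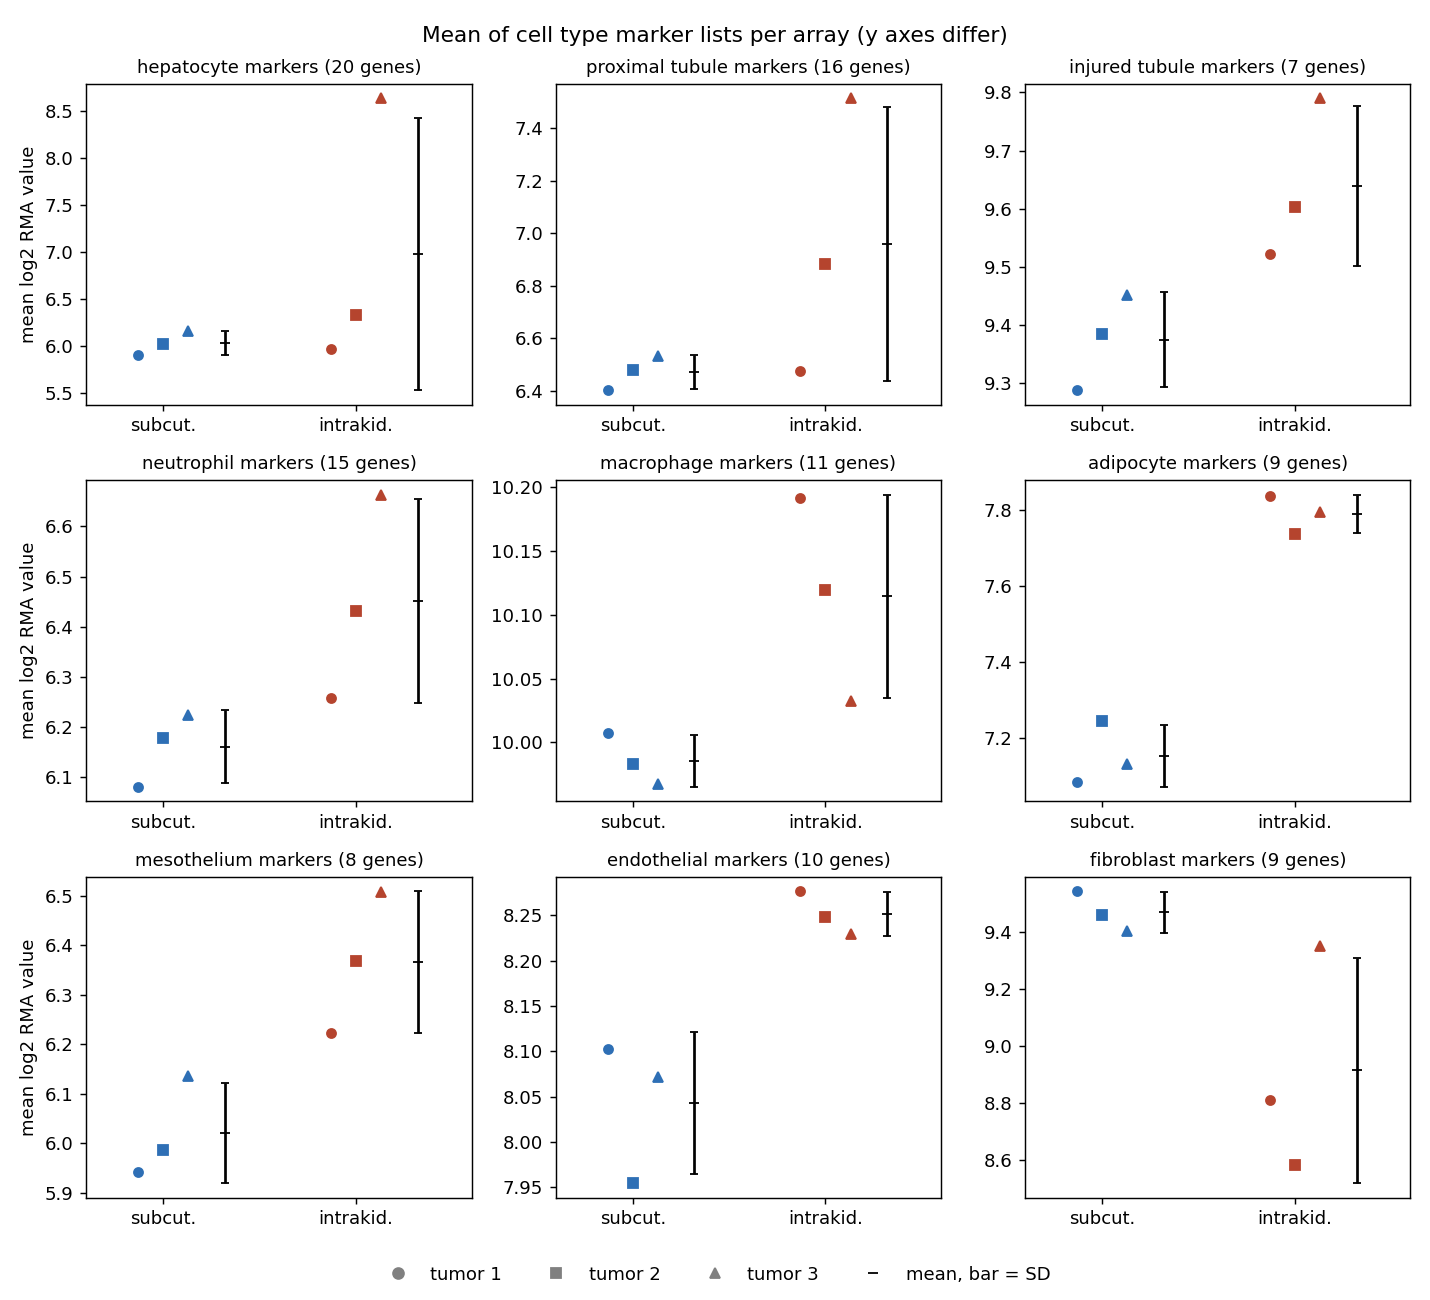
Mean log2 RMA value of 9 cell type marker lists in each subcutaneous (blue) and intrakidney (red) tumor, with group mean and SD; the y axes differ. Hepatocyte markers stood at 8.63 in intrakidney tumor 3 and at 5.97 in intrakidney tumor 1, and macrophage markers were highest in intrakidney tumor 1, at 10.19. The adipocyte mean rests largely on Car3, without which it was 7.49 to 7.54 against 7.15 to 7.26.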

How the data were processed

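The authors deposited log2 expression values of 35512 array rows for 6 tumors, for which the submitters' processing notes name RMA and affy. Background correction, normalization between arrays and probe summary by RMA can compress changes of dim genes. Software versions and build are not given in the sources used here. The values ran from 2.31 to 15.07, which is why they were read as log2. The platform annotation paired 21789 rows with exactly 1 gene, which gave 19938 genes after the row with the highest mean was taken for 999 genes with several rows. Of these genes, 19856 matched the GRCm38.p6 gene table by Entrez identifier, with 0 symbols changed.

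Groups were taken from the sample titles and compared by lmFit and eBayes of limma 3.58.1 (R 4.3.3), two-sided, intrakidney minus subcutaneous, with Benjamini-Hochberg adjustment over all genes and a threshold of 0.05. The 95% intervals are those of the moderated fit. The members, gene lists and motifs were chosen with earlier results of these data known. All members and Alb were named, as were list genes past the threshold or, where none passed, up to 3 by lowest adjusted p, and the 3 genes nearest in profile to each member. A gene named otherwise was chosen after its values were seen. Among the list genes not analysed here were C3, Serpina3g, Serpina3m, Cntf, Il22, Il1r1, Il11ra1, Nfkb1, Fpr1, Fpr2, Spp1 and Cfd. Other settings are given in the closing section.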

Additional observations from a re-analysis of the deposited data

How the results depend on the processing

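The count of acute phase genes past the threshold, 1 with all arrays, and the count of all genes past it, 46, depended on the setting. They were 2 and 101 once the dimmest 40% of genes were left out, a filter that also removed Saa1 and Saa2, 2 and 138 with a trended, robust prior, 5 and 624 with array weights, and 1 and 74 with an offset of 16 on the linear scale. They were 0 and 0 when every array row was tested (6 of the 10 at an unadjusted p of 0.05), 0 and 9 with Alb as a covariate, and 0 and 6 with the proximal tubule mean as a covariate. With array weights the difference went from 2.75 to 4.85 for Alb and from 1.41 to 3.04 for Saa2, nearer to intrakidney tumor 3. That setting also gave the lowest adjusted p of the ranges stated above for Lrg1, Hp, Lcn2, Steap4 and Saa3. Leaving out each array in turn gave 0 to 2 acute phase genes and 2 to 33 genes in all. Leaving out both intrakidney tumors 2 and 3, which was decided after the data were seen, gave 2 and 30. That fit held intrakidney tumor 1 alone in its group, so its counts do not test the site. The replicate number as a block gave 0 and 0 (7 of the 10 and 1825 genes at an unadjusted p of 0.05). Deviations of same-numbered tumors correlated at 0.37, -0.16 and 0.10, and 2 of the 3 intrakidney tumors correlated best with their own number. With 3 tumors per site, these values cannot decide whether the numbers pair the tumors.

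The median difference of the 10 genes stayed between 0.66 and 1.45 over all 18 other settings. Differences that changed sign were those of Saa2 (-0.86 with Alb and -0.84 with the proximal tubule mean as a covariate, -0.19 without intrakidney tumors 2 and 3, and -0.10 to 2.21 as each array was left out), Orm1 (-0.10 and -0.081 with these covariates), Orm2 (-0.083 and -0.061 with these covariates, and -0.017 to 0.33 as each array was left out) and Alb (-0.058 with the proximal tubule covariate). The cause was not tested. Depth is not defined for arrays, and 3 arrays per group limit the precision.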
